A study of Mus musculus with 28 samples.

Results

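Serum amyloids, other acute phase proteins and metallothioneins are among the most inducible gene products of the liver. The 10 genes described here were chosen by symbol: Saa1, Saa2, Saa3 and Saa4, Lcn2, Orm1, Orm2, Crp, Mt1 and Mt2. All 10 were found among the 23393 symbols that the deposited count tables share, and all 10 were among the 12607 genes that passed the filter on low counts. Liver RNA was sequenced from 28 mice of strain 129svj aged 11 to 13 months, 7 in each of 4 groups. HZ animals were heterozygous for Sirt6, with the allele and its construction not given in the sources used here, and WT animals were wild type. Sirt6 encodes a nuclear deacylase that acts on histones. WY animals were gavaged with WY-14643, an agonist of the nuclear receptor PPARα, at 50 mg/kg in 0.5% carboxymethylcellulose, vehicle animals were given the carboxymethylcellulose alone, and livers were taken 12 h later. The groups were HZ under WY, WT under WY, HZ under vehicle and WT under vehicle.

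In the acute phase response, hepatocytes react to cytokines such as IL-6 and IL-1, through STAT3, NF-κB and C/EBP factors, by raising the transcription of plasma proteins. Saa1 and Saa2 are the main inducible serum amyloids of mouse liver and travel on high-density lipoprotein, Saa4 is the constitutive one, and Saa3 is known mostly from macrophages and adipose tissue. Lcn2 binds bacterial siderophores and so withholds iron, Orm1 and Orm2 are acid glycoproteins that carry lipophilic ligands, and Crp is a pentraxin whose response in mice is weak. Mt1 and Mt2 encode cysteine-rich proteins that bind zinc and copper. They respond to metals through the factor MTF1, and also to glucocorticoids and inflammation.

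The gene pairs lie close together in the genome and in part share sequence, which bears on how far their reads can be separated. On GRCm38 the serum amyloid genes lie on chromosome 7, Saa3 from 46711998 to 46715700, Saa4 from 46727998 to 46732603 and Saa1 from 46740497 to 46742980, all on the minus strand, and Saa2 from 46751790 to 46754313 on the plus strand. Mt2 (94172664 to 94173568) and Mt1 (94179082 to 94180327) lie on the plus strand of chromosome 8, and Orm1 (63344560 to 63348163) and Orm2 (63362449 to 63365878) on the plus strand of chromosome 4. Lcn2 is on chromosome 2 (32384633 to 32388252, minus strand) and Crp on chromosome 1 (172698055 to 172833031, plus strand). The 250 bases before the start are shown for 6 of them, because Saa1 and Saa2, and Mt1 and Mt2, had the highest Pearson coefficients of all member pairs across livers while Saa3 and Lcn2 did not always follow. They are from RefSeq on GRCm38.p6 and run 5′ to 3′ on the gene's strand, and capitals mark the motif matches described after them.
Saa1: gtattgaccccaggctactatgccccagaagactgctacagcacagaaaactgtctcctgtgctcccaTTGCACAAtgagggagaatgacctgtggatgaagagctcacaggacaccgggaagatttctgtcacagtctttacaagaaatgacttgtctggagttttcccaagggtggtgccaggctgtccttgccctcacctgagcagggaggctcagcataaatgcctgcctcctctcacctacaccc
Saa2: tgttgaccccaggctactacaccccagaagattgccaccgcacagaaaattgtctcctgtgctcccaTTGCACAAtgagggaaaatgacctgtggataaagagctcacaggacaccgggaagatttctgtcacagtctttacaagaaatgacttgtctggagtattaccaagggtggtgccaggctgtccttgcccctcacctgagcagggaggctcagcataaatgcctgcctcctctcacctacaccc
Saa3: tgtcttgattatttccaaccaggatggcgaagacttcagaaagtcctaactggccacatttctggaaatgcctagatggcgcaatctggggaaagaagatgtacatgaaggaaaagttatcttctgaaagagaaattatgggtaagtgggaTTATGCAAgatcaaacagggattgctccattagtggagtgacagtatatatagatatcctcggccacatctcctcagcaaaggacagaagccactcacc
Lcn2: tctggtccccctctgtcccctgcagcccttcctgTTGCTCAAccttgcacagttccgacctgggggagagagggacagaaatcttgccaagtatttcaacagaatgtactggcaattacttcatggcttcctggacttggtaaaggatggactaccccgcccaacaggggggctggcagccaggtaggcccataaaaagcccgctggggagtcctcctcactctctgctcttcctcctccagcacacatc
Mt1: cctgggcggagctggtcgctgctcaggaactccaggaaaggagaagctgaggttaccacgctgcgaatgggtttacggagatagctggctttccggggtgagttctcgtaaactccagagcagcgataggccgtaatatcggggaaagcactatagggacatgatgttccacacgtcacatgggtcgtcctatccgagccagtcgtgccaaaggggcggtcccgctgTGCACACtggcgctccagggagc
Mt2: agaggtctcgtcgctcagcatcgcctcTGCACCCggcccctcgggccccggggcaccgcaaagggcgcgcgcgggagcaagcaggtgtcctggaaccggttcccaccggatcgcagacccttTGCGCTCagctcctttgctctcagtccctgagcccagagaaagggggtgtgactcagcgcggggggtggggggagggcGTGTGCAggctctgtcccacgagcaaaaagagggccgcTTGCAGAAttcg
The windows are chr7:46742981-46743230 (minus strand) for Saa1, chr7:46751583-46751832 (plus) for Saa2, chr7:46715677-46715926 (minus) for Saa3, chr2:32387740-32387989 (minus) for Lcn2, chr8:94178839-94179088 (plus) for Mt1 and chr8:94172368-94172617 (plus) for Mt2. A RefSeq window was found for 9 of the 10 members, all except Orm1. For Mt2 the RefSeq start lies upstream of the GENCODE one, so its window ends before the annotated gene body. For Lcn2 the whole window lies inside the GENCODE gene, and the windows of Saa2, Saa3 and Mt1 end a short way inside theirs. The windows thus depend on the start that RefSeq gives.

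The Saa1 and Saa2 windows were identical at 238 of 250 aligned bases (95.2%), against 61.6% for Saa1 and Saa3 and 58.4% for Mt1 and Mt2. A C/EBP motif, searched as TTGCNNAA or TTNNGCAA on both strands, was found once in Saa1 (bases 182 to 175 before the start), Saa2 (183 to 176), Saa3 (99 to 92), Lcn2 (216 to 209), Orm2 (120 to 113) and Mt2 (12 to 5), and in 2 places in Saa4. The same motif was present in 9.6% of 32851 mouse promoter windows of that length. The core of the metal response element, TGCACNC or TGCGCNC on both strands, matched once in Mt1 (23 to 17) and in 3 places in Mt2 (223 to 217, 128 to 122 and 50 to 44), and in none of the other 7 windows, against 21.4% of all windows. No member window held the consensus motif of NF-κB (present in 1.0% of all windows) or TTCNNNGAA, searched for STAT3 (7.0%), each on both strands. A match is a run of letters and not a measured binding site, and a missing match speaks only of these letters in these 250 bases.

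Sequence shared within the families limits single gene values to different degrees. Principal transcripts of Saa1 and Saa2 were 87.7% identical and 14.8% and 9.1% of their 50-base windows occurred in another gene, so a read inside those stretches cannot be assigned. For Orm1 and Orm2 the identity was 91.0%, with 20.4% and 22.7% of windows shared. Mt1, Mt2 and Lcn2 shared no 50-base window with another gene, and for Saa3 the share was 1.8%. Per the tables' summary lines, alignments counted as not unique made up 35.8 to 42.6% of a library's total, those lines included.

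Each library held 15795201 to 20020078 counts assigned to genes. Sirt6 itself, the check of the genotype labels, had 1.29 to 2.29 CPM in HZ livers under WY (median 1.47) against 2.27 to 4.18 CPM in WT livers under WY (median 3.33), and 0.881 to 1.38 CPM in HZ livers under vehicle (median 1.29) against 1.91 to 3.52 CPM in WT livers under vehicle (median 2.10). CPM is the count scaled to a common library total. Hepatocyte markers were high in all groups, with Alb between 30731 and 85280 CPM over the 28 livers. Lymphoid and adipocyte marker genes were near 0 except Cidec, a lipid droplet protein that hepatocytes also make. Among all genes outside the members and the lists used here, the second principal component (9.28% of the variance) set 5 HZ livers apart, those of animals 30 and 38 under vehicle and 14, 15 and 21 under WY. Their scores were -17.16 or lower while the next was at -5.28, and values that moved without them are given beside the results. The 5 livers are all HZ and were chosen after the data were seen, so leaving them out is no independent check of a genotype difference.

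Levels per kilobase of transcript set the members in order. In WT livers under vehicle the median was highest for Orm1 (800 CPM per kilobase), followed by Crp (188), Saa4 (139), Saa1 (51.7), Mt1 (28.2), Saa2 (27.2), Mt2 (14.3), Orm2 (9.70), Lcn2 (6.83) and Saa3 (5.36). In HZ livers under WY the order of medians was Orm1 (700), Saa1 (302), Crp (103), Saa2 (92.4), Saa4 (56.9), Mt1 (30.7), Orm2 (17.9), Lcn2 (10.1), Mt2 (9.17) and Saa3 (5.79). Within groups, the highest liver exceeded the lowest by 1.32 to 1.61 times for Crp, 1.37 to 2.30 times for Orm1 and 1.73 to 4.24 times for Saa4, but by 2.31 to 115 times for Saa1, as the plot of levels by animal shows. Ranges of neighbours in these orders overlapped, other than those of Orm1 and Crp in WT livers under vehicle. The 10 genes together took a median of 0.129% of gene counts in HZ livers under WY, 0.0806% in WT livers under WY, 0.145% in HZ livers under vehicle and 0.128% in WT livers under vehicle. In HZ vehicle animal 30 they took 1.135%.

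**Figure D1:**
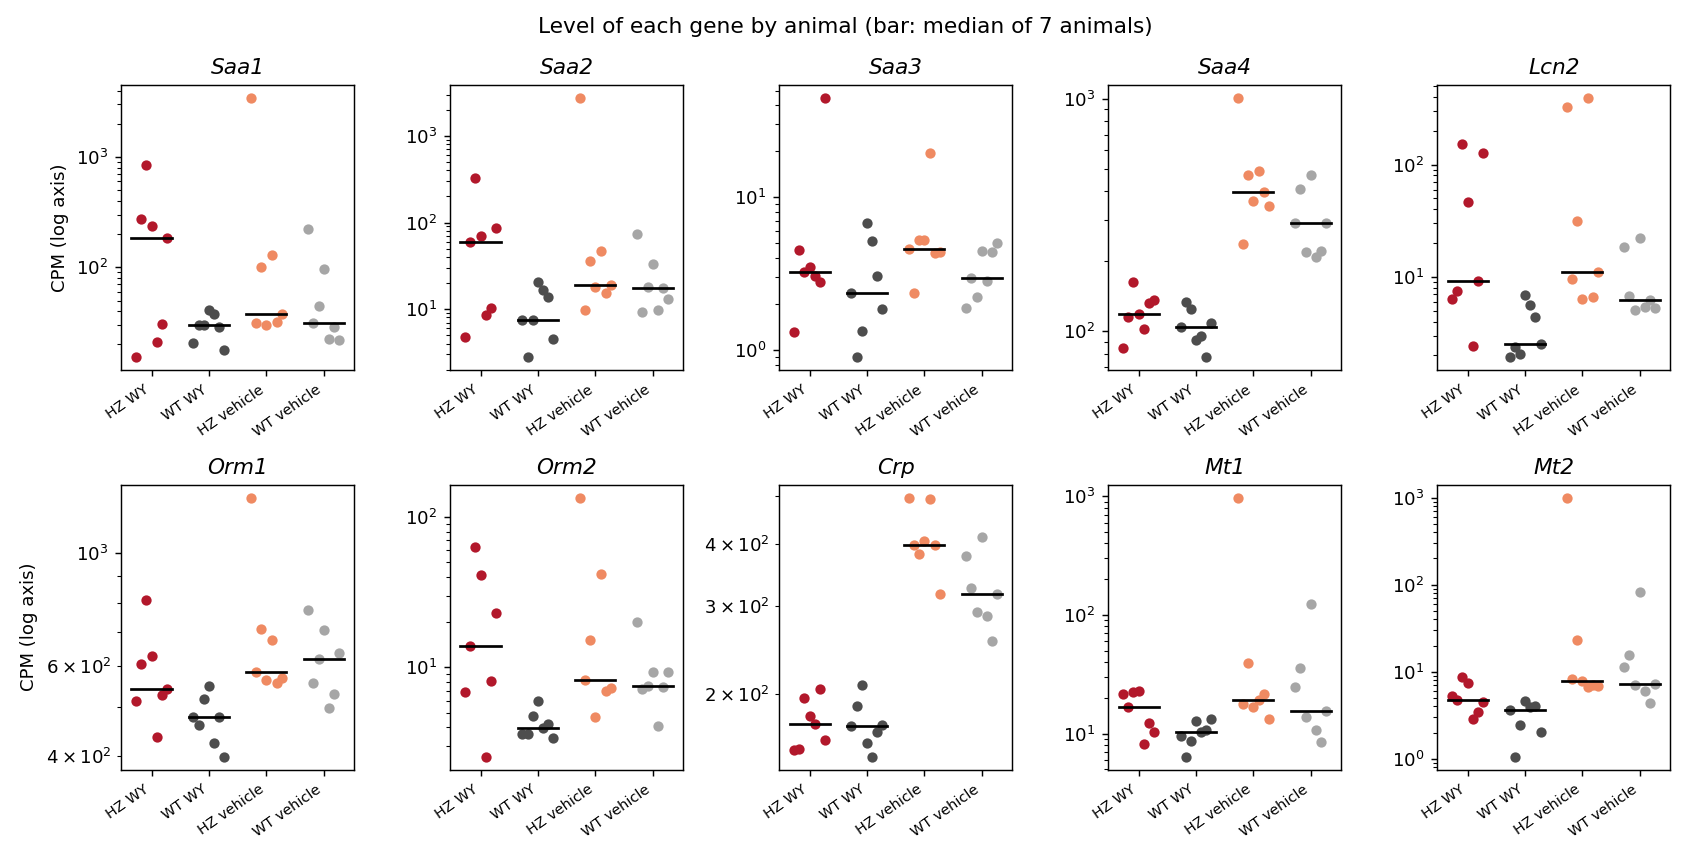
Level of each of the 10 genes in CPM on a log axis, 1 point per liver, with the bar at the median of 7 livers, for HZ under WY, WT under WY, HZ under vehicle and WT under vehicle. Saa1, Saa2, Lcn2 and Orm2 spread wider in HZ livers than in WT livers of the same treatment. Among HZ vehicle livers the highest exceeded the lowest 73.0 times for Mt1 and 150 times for Mt2, and among HZ WY livers 34.5 times for Saa3. Saa4 and Crp are lower in every WY liver than in any vehicle liver of the same genotype.

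Under WY, none of the 10 genes passed the test of HZ against WT, although several HZ livers stood far above all WT livers. Of all genes tested, 3.16% passed in this comparison in either direction (edgeR quasi-likelihood, adjusted p below 0.05 over 12607 genes), and 3033 had an unadjusted p under 0.05. The HZ and WT groups overlapped for all 10 members, against 1.35% of genes whose groups did not. Saa1 ranged from 15.4 to 844 CPM in HZ livers (median 184 CPM) against 17.8 to 41.1 CPM in WT livers (median 30.0 CPM). Saa2 ranged from 4.80 to 324 CPM in HZ livers (median 60.3 CPM) against 2.80 to 20.4 CPM in WT livers (median 7.57 CPM). Animals 5, 14, 15 and 21 exceeded every WT liver for both genes, while animals 2, 17 and 18 lay within or below the WT range. The fitted log2 fold change was 2.97 ± 1.10 (SE) for Saa1, with an adjusted p of 0.108, and 2.95 ± 1.22 for Saa2, with an adjusted p of 0.143 (95% intervals 0.69 to 5.24 and 0.42 to 5.47).

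Lcn2 and Orm2 came nearest to the threshold. Lcn2 ranged from 2.45 to 153 CPM in HZ livers under WY (median 9.23 CPM) against 1.94 to 6.98 CPM in WT livers under WY (median 2.51 CPM), a log2 fold change of 3.77 ± 1.10 with an adjusted p of 0.0576. Orm2 ranged from 2.55 to 62.9 CPM in HZ livers (median 13.9 CPM) against 3.40 to 6.00 CPM in WT livers (median 3.95 CPM), at 2.43 ± 0.74 and an adjusted p of 0.0636. In HZ animals 14, 15 and 21 Lcn2 stood at 153, 46.4 and 128 CPM, whereas animal 5, with 273 CPM of Saa1, had 7.52 CPM of Lcn2. The number of members past the threshold was 4 by DESeq2 (Saa1, Saa2, Lcn2 and Orm2, all higher), 1 with DESeq2 size factors (Lcn2), and 0 by voom with quality weights and by exact permutation of ranks. Of all 12607 genes, 1123 passed by DESeq2, 683 with DESeq2 size factors, 968 by voom and 310 by ranks, against 398 in the main fit. The number of members was 4 also in the edgeR fit without HZ vehicle animal 30, which is no part of this comparison but enters the shared estimate of the spread. It was 0 without the 5 HZ livers set apart on the second component. Of all genes, 491 passed without animal 30 and 49 without the 5 livers. Without those 5 livers the log2 fold changes under WY were 1.53 ± 0.72 for Saa1 (adjusted p 0.315), 1.01 ± 0.68 for Saa2 (0.516), 0.78 ± 0.57 for Lcn2 (0.550) and 0.89 ± 0.40 for Orm2 (0.287). They include animals 14, 15 and 21, the HZ WY livers highest in Lcn2, so a smaller Lcn2 difference follows from their choice. Lcn2 also passed without HZ vehicle animal 38 (adjusted p 0.0393), and Lcn2 and Orm2 passed without HZ WY animal 17 (0.0478 for both) or 2 (0.0341 and 0.0381).

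Saa3, Saa4, Orm1 and Crp did not separate the genotypes under WY. Saa3 ranged from 1.30 to 44.8 CPM in HZ livers (median 3.21 CPM) against 0.899 to 6.78 CPM in WT livers (median 2.37 CPM), and animal 21 alone lay above the WT range. Its log2 fold change was 1.56 ± 0.67 (adjusted p 0.156) with all livers and 0.01 without that animal. Saa4, at 0.22 ± 0.24, Orm1, at 0.30 ± 0.16, and Crp, at 0.01 ± 0.10, had overlapping groups and 95% intervals that include 0. For Crp the interval ran from -0.20 to 0.22 on the log2 scale.

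Mt1 and Mt2 also overlapped between genotypes under WY. Mt1 ranged from 8.18 to 22.7 CPM in HZ livers (median 16.8 CPM) against 6.40 to 13.3 CPM in WT livers (median 10.3 CPM). Mt2 ranged from 2.84 to 8.75 CPM in HZ livers (median 4.69 CPM) against 1.06 to 4.63 CPM in WT livers (median 3.64 CPM). Animals 2, 5, 14 and 15 lay above the WT range for both genes, whereas animal 21, high in Saa3 and Lcn2, had 10.3 CPM of Mt1 and 4.44 CPM of Mt2. The log2 fold changes were 0.67 ± 0.91 (adjusted p 0.700) and 0.76 ± 1.26 (adjusted p 0.759), and 0.52 and 0.38 without the 5 livers set apart.

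Under vehicle, HZ and WT livers again overlapped for all 10 members, and none passed the test, against 2.07% of all genes in either direction. Groups did not overlap for 0.27% of all genes. In this comparison 2256 genes had an unadjusted p under 0.05. The share of 2.07% depends on the fit. Of all genes 0 passed by ranks, with only the groups compared, and without the 5 livers set apart on the second component. Saa1 ranged from 29.8 to 3434 CPM in HZ livers (median 38.1 CPM) against 21.9 to 222 CPM in WT livers (median 31.5 CPM). Saa2 ranged from 9.69 to 2750 CPM in HZ livers (median 19.0 CPM) against 9.31 to 74.6 CPM in WT livers (median 17.7 CPM). Animal 30 gave both maxima, and the second highest HZ livers had 130 CPM of Saa1 and 47.0 CPM of Saa2, inside the WT range. The log2 fold changes of 3.02 ± 1.10 (adjusted p 0.145) and 4.04 ± 1.24 (adjusted p 0.0866) became -0.14 and -0.05 without animal 30, so that the direction turned. Without the 5 livers set apart on the second component they were -0.53 and -0.36.

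The direction for the metallothioneins under vehicle also turned with animal 30. Mt1 ranged from 13.3 to 973 CPM in HZ livers (median 19.1 CPM) against 8.46 to 123 CPM in WT livers (median 15.5 CPM). Mt2 ranged from 6.63 to 998 CPM in HZ livers (median 7.82 CPM) against 4.42 to 83.4 CPM in WT livers (median 7.29 CPM). The maxima came from animal 30 among HZ livers and from animal 37 among WT livers. With all livers the log2 fold changes were 2.25 ± 0.87 (adjusted p 0.168) and 2.97 ± 1.04 (adjusted p 0.132). Leaving out animal 30 made them -0.64 and -0.96, leaving out the 5 livers set apart made them -0.61 and -0.86, and leaving out WT animal 37 brought Mt2 to 4.13 with an adjusted p of 0.0408.

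Lcn2 under vehicle had 2 high livers in place of 1. It ranged from 6.31 to 392 CPM in HZ livers (median 11.1 CPM) against 5.13 to 22.3 CPM in WT livers (median 6.25 CPM), with animals 38 (392 CPM) and 30 (329 CPM) far above the rest and animal 35 at 31.7 CPM. The log2 fold change was 3.50 ± 1.03 (adjusted p 0.0707) and ranged from 2.73 to 3.83 on leaving out 1 library at a time. Without the 5 HZ livers set apart on the second component, which include both animals, it was 0.39 ± 0.48 (adjusted p 0.845). Orm2, at 4.69 to 134 CPM in HZ livers (median 8.28 CPM) against 4.05 to 19.9 CPM in WT livers (median 7.52 CPM), had 1.76 ± 0.69 (adjusted p 0.172), and 0.61 without animal 30. Without the 5 livers it was -0.13 (adjusted p 0.943). Saa3, at 2.35 to 19.4 CPM in HZ livers (median 4.59 CPM) against 1.89 to 5.05 CPM in WT livers (median 2.97 CPM), had its maximum in animal 38.

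Crp and Saa4 varied less among HZ livers under vehicle than Saa1 or Lcn2 did. Crp ranged from 318 to 496 CPM in HZ livers (median 398 CPM) against 256 to 413 CPM in WT livers (median 318 CPM), a log2 fold change of 0.35 ± 0.10 with an adjusted p of 0.0648. It passed by DESeq2 (adjusted p 0.0238) and by voom (0.0303). In edgeR it also passed without WT animal 37 (0.0190) and without HZ animal 71 (0.0165), and that last omission also brought Saa2 (0.0464) and Lcn2 (0.0370) past the threshold. Saa4 ranged from 238 to 1007 CPM in HZ livers (median 398 CPM) against 208 to 468 CPM in WT livers (median 291 CPM), at 0.65 ± 0.24 (adjusted p 0.147), and passed by voom alone (0.0482). Orm1, at 0.20 ± 0.15 (adjusted p 0.534), had a lower median in HZ livers (585 CPM) than in WT livers (620 CPM).

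**Figure D2:**
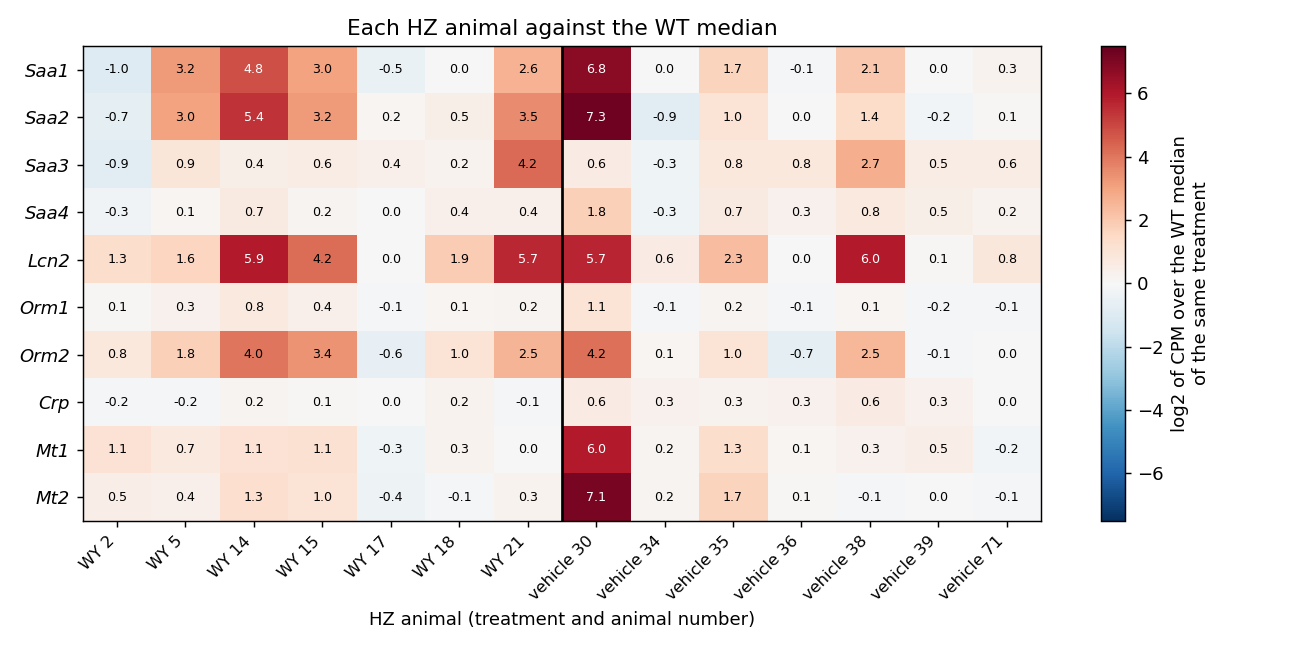
Log2 of each HZ animal's CPM over the median of the 7 WT animals of the same treatment, for the 10 genes (rows) and the 14 HZ animals (columns, WY left of vehicle), with the value printed in each cell. Animal 30 reaches 7.28 for Saa2 and 7.10 for Mt2, whereas animals 38 and 21 are high in Lcn2 (5.97 and 5.67) and Saa3 (2.70 and 4.24) with little change in Mt2 (-0.14 and 0.29).

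The HZ livers with high members differed in which members were high. Animal 30 (vehicle) lay above every WT vehicle liver for 9 of the 10 members, all except Saa3. Animal 14 (WY) lay above every WT WY liver for 8, animals 5 and 15 for 7 each and animal 21 for 6. Animal 38 (vehicle) did so for 5, namely Saa3, Saa4, Lcn2, Orm2 and Crp, but its Saa1 (130 CPM), Saa2 (47.0 CPM), Mt1 (19.1 CPM) and Mt2 (6.63 CPM) were inside the WT range. The HZ vehicle livers of animals 34, 39 and 71 exceeded all WT vehicle livers for no member, and so did animal 17 under WY. Among WT livers, animal 37 (vehicle) had 123 CPM of Mt1 and 83.4 CPM of Mt2 with 96.0 CPM of Saa1, and animal 29 (vehicle) had 222 CPM of Saa1 with 24.6 CPM of Mt1.

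Within groups, many of the members moved together across livers. These relations use log2 CPM with the mean of each group removed, n = 28 livers and 100000 permutations within groups, and 45 pairs were computed. Saa1 and Saa2 had Pearson r = 0.958 and Spearman rho = 0.911, and r = 0.910 without animals 30 and 14, which lie farthest out for Saa1. Mt1 and Mt2 had r = 0.971 and rho = 0.888, and r = 0.878 without HZ animal 30 and WT animal 37. For both pairs the permutation p was 1e-05, the smallest that this number of permutations can give, with adjusted values of 4.5e-05 for r and 5.62e-05 for rho.

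Saa1 and Orm2 had r = 0.908 and rho = 0.891, and r = 0.834 without animals 30 and 14. Saa1 and Orm1 had r = 0.903 and rho = 0.814, and r = 0.789 without the same animals. Orm1 and Orm2, whose transcripts share sequence, had r = 0.882 and rho = 0.874, and r = 0.785 without them. The adjusted permutation p was 4.5e-05 for r and 5.62e-05 for rho in all 3 pairs.

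For Lcn2 the coefficients with Orm2 and Saa1 were higher than that with Saa3. Lcn2 and Orm2 had r = 0.899 and rho = 0.868 (adjusted permutation p 4.5e-05 and 1e-04), and r = 0.881 without animals 38 and 30. Saa1 and Lcn2 had r = 0.799 and rho = 0.820 (adjusted permutation p 4.5e-05 and 5.62e-05), and r = 0.718 without animals 30 and 14. Lcn2 and Saa3 had r = 0.529 and rho = 0.428 (adjusted permutation p 0.0118 and 0.0325), and r = 0.285 without animals 21 and 38, on which the relation rests. Saa1 and Saa3 had r = 0.216 and rho = 0.313 (adjusted permutation p 0.424 and 0.133). Differences between these coefficients were not tested.

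Between serum amyloids and metallothioneins the coefficients were lower than within either pair. Saa1 and Mt1 had r = 0.696 and rho = 0.562 (adjusted permutation p 0.0102 and 0.00927), and r = 0.422 without animals 30 and 14. Saa4 and Crp had r = 0.678 and rho = 0.744 (adjusted permutation p 0.00211 and 0.000286), and r = 0.720 without animals 30 and 34. Of the 45 pairs, 29 had adjusted p below 0.05 for both coefficients. Of these, 17 kept r of at least 0.5 without the 2 livers farthest out for 1 gene of the pair, the first in the order of members given above. Livers far out only for the other gene stayed in. The share of such pairs among all tested genes was not computed, so 29 of 45 does not set the members apart from other genes.

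**Figure D3:**
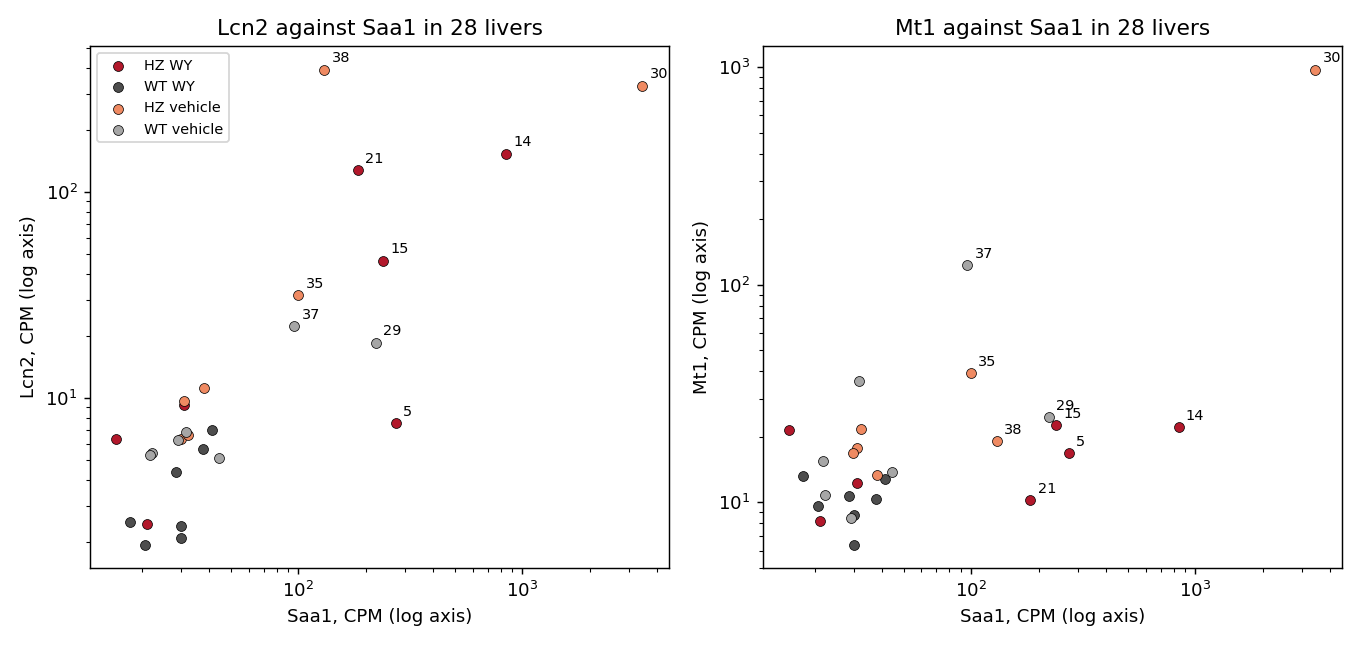
Lcn2 (left) and Mt1 (right) against Saa1 in 28 livers, in CPM on log axes, coloured by group, with selected animal numbers. Lcn2 reaches 392 CPM in animal 38 at 130 CPM of Saa1, and Mt1 is 123 CPM in WT animal 37 at 96.0 CPM of Saa1 but 22.3 CPM in HZ animal 14 at 844 CPM.

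Marker genes of other cells were high in several, though not all, of the HZ livers with high members, and the summed level of hepatocyte markers was low in some of them. The summed level of 12 neutrophil and monocyte markers, of which 6 were tested, ranged from 5.56 to 30.6 CPM in HZ livers under WY against 4.34 to 6.85 CPM in WT livers under WY, and from 5.35 to 23.6 CPM in HZ livers under vehicle against 5.49 to 11.1 CPM in WT livers under vehicle. It was 30.6, 27.8 and 15.4 CPM in HZ animals 15, 21 and 14 under WY and 23.6, 21.6 and 19.0 CPM in HZ animals 30, 38 and 35 under vehicle. In HZ WY animal 5, above all WT WY livers for 7 members, it was 5.56 CPM, the lowest of its group and inside the WT range, and its Kupffer cell sum of 428 CPM was also inside that range. Granule genes were at or near 0 in most livers, with medians of 0.109 CPM or less for Mpo under WY in both genotypes and a highest value of 1.19 CPM. Cxcr2, a chemokine receptor of neutrophils, was the 1 list gene outside the members that was higher in HZ under WY. It was at 1.60 ± 0.44 with an adjusted p of 0.0446. Its levels were near 0 and overlapped, at 0.196 to 1.08 CPM in HZ (median 0.643) against 0.0607 to 0.299 CPM in WT (median 0.164). The 12 Kupffer cell and macrophage markers summed to 350 to 942 CPM in HZ livers under WY against 308 to 470 CPM in WT livers under WY, and to 405 to 854 CPM in HZ livers under vehicle against 406 to 554 CPM in WT livers under vehicle, with 0 of 12 called in either comparison. The 8 hepatocyte markers summed to 47147, 61325, 61459 and 63665 CPM in HZ WY animals 14, 5, 21 and 15, below the lowest WT WY liver (69945 CPM), and to 74440 CPM or more in the other HZ WY livers. Under vehicle the sum was 76093 and 80823 CPM in HZ animals 30 and 38, below the lowest WT liver (85144 CPM), and 100640 CPM or more in the other HZ livers. Alb (median 47467 CPM in HZ WY livers) dominates this sum, and Alb, Ttr and Apoa1 are also negative acute phase genes. Of the other markers, Hnf4a (median 736 against 677 CPM) and Cps1 had higher medians in HZ than WT under WY, and Tat, Serpina1a and Cyp2e1 lower ones. In either genotype comparison 0 of 8 were called. The part of these markers in the members' levels was not tested, and in whole tissue fewer cells of a type and less RNA per cell cannot be told apart.

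Saa4 and Crp were lower under WY in both genotypes, with no overlap between WY and vehicle livers. In HZ livers 4 of 10 members were lower under WY (Saa4, Crp, Mt1 and Mt2) and in WT livers 3 of 10 (Saa4, Orm1 and Crp), while 0 were higher in either. Of all genes, 26.4% were lower in HZ and 26.7% in WT, so these shares do not set the members far from the background. Without HZ vehicle animal 30, Mt1 and Mt2 no longer passed in HZ. Groups with every WY liver below every vehicle liver made up 9.9% of genes in HZ and 12.1% in WT, and 2 of 10 members in each, Saa4 and Crp. WY animals carry the numbers 2 to 25 and vehicle animals 29 to 39 and 71 to 78, so animal number and treatment cannot be told apart.

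Crp ranged from 155 to 205 CPM under WY in HZ livers (median 174 CPM) against 318 to 496 CPM under vehicle (median 398 CPM), a log2 fold change of -1.24 ± 0.10 with an adjusted p of 1.26e-10. In WT livers it ranged from 150 to 208 CPM under WY (median 172 CPM) against 256 to 413 CPM under vehicle (median 318 CPM), at -0.90 ± 0.10 with an adjusted p of 2.69e-08. Saa4 ranged from 85.2 to 164 CPM under WY in HZ livers (median 119 CPM) against 238 to 1007 CPM under vehicle (median 398 CPM), at -1.95 ± 0.25 with an adjusted p of 2.45e-07. In WT livers Saa4 ranged from 77.7 to 134 CPM under WY (median 104 CPM) against 208 to 468 CPM under vehicle (median 291 CPM), at -1.52 ± 0.24 with an adjusted p of 9.07e-06. These 4 calls held in every alternative run, leaving out each library included.

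Orm1 in WT livers ranged from 399 to 548 CPM under WY (median 478 CPM) against 498 to 774 CPM under vehicle (median 620 CPM). Its log2 fold change of -0.39 ± 0.16 passed with an adjusted p of 0.0366. The call was lost without a filter on low counts (0.0603) and on leaving out WT vehicle animal 29, 32, 37 or 78 or WT WY animal 10, 20 or 25, with adjusted p up to 0.0875. In HZ livers Orm1 had -0.28 ± 0.15 and an adjusted p of 0.123.

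The metallothionein calls for WY in HZ livers rested on 1 vehicle liver. In HZ livers Mt1 had a log2 fold change of -3.27 ± 0.91 (adjusted p 0.00369) and Mt2 of -4.84 ± 1.17 (adjusted p 0.00108). Without animal 30 these were -0.39 (adjusted p 0.515) and -0.91 (adjusted p 0.188), by DESeq2 -0.35 (0.315) and -0.86 (0.0261), and the difference of median log2 CPM was -0.18 and -0.73. In WT livers Mt2 ranged from 1.06 to 4.63 CPM under WY against 4.42 to 83.4 CPM under vehicle, so that 6 of 7 WY livers lay below every vehicle liver. Its log2 fold change was -2.64 ± 1.19 with an adjusted p of 0.0640, and -1.48 without WT vehicle animal 37. The same comparison fitted on the 14 WT livers alone had an SE of 0.73 and an adjusted p of 0.00832, and 7 of 10 members were then lower under WY, with Lcn2, Orm2, Mt1 and Mt2 added. Over all genes, 7081 passed in that fit in either direction, against 6815 in the fit of 28 livers. Mt1 in WT livers, at -1.69 ± 0.90 in the fit of 28 livers, had an adjusted p of 0.117. Without HZ vehicle animal 30 the fit of the remaining livers gave adjusted p of 0.00393 for Mt1 and 0.000538 for Mt2 in WT.

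The inducible members did not pass for WY in either genotype. In HZ livers Saa1 had -1.24 ± 1.03 (adjusted p 0.320) and Saa2 -2.36 ± 1.15 (adjusted p 0.0840), but their medians were higher under WY (184 and 60.3 CPM) than under vehicle (38.1 and 19.0 CPM). Without animal 30 the log2 fold changes were 1.93 (adjusted p 0.0354) and 1.74 (adjusted p 0.0545), and DESeq2, which replaced the Saa2 count of animal 30 as outlying, called Saa2 higher at 1.74 (adjusted p 0.0183). By DESeq2 Saa3, Saa4, Crp and Mt2 were also called, all lower. Saa3 in HZ livers, at 0.45 ± 0.63, became -1.09 (adjusted p 0.0373) without WY animal 21. Leaving out WY animal 14 brought Saa2 to -3.37 (adjusted p 0.0237) and Orm1 to -0.38 (adjusted p 0.0361) in HZ livers. In WT livers Saa1 had -1.18 ± 1.05, Saa2 -1.26 ± 1.19, Lcn2 -1.43 ± 1.12 and Orm2 -1.13 ± 0.76, all with adjusted p above 0.2 in the fit of 28 livers.

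**Figure D4:**
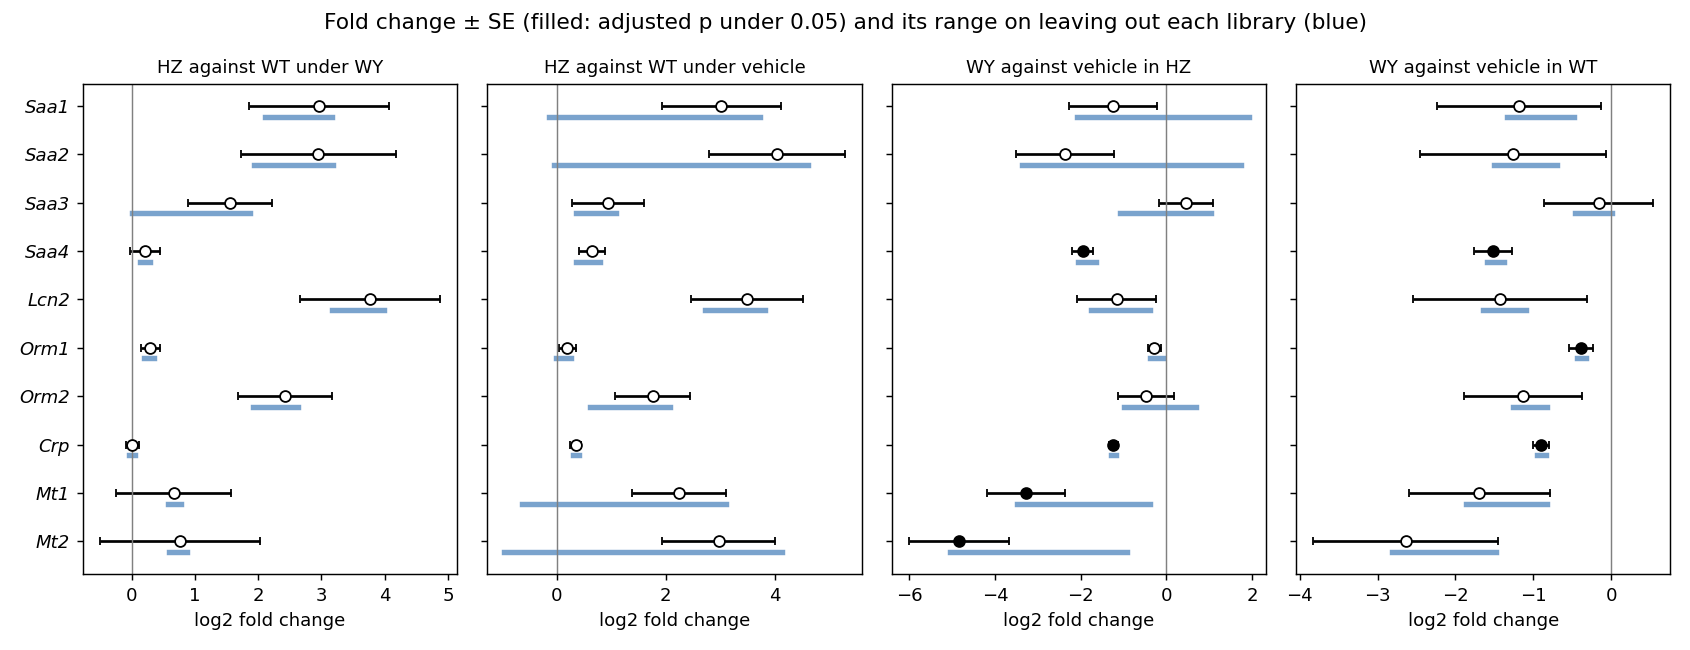
Log2 fold change ± SE of the 10 genes in 4 comparisons (black, filled where the adjusted p is under 0.05), and in blue the range of the fold change on leaving out each of the 28 libraries. The ranges for Saa1, Saa2, Mt1 and Mt2 extend past 0 for HZ against WT under vehicle, and those of Crp and Saa4 stay narrow in all 4 comparisons.

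The response to WY was not shown to differ between genotypes for any member. Of all genes 0 of 12607 passed the interaction test in edgeR (0.0%), with 1182 at an unadjusted p under 0.05, and DESeq2 and voom called 3 genes and 1 gene, none of them a member. The smallest adjusted p among the members was 0.488, for Crp at -0.34 ± 0.14. The 95% intervals were wide for the inducible members, from -3.06 to 2.94 for Saa1 and from -2.69 to 3.23 for Lcn2.

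Lists of related genes were counted in the same comparisons, and a count near the share of all genes does not set a list apart. Under WY 26.4% of all genes were lower and 29.3% higher in HZ, and 26.7% lower and 27.4% higher in WT. Between HZ and WT 3.16% of all genes differed under WY and 2.07% under vehicle. Of 18 other positive acute phase proteins, 0 differed between HZ and WT under either treatment. Under WY 7 were lower and 1 higher in HZ livers and 9 were lower and 1 higher in WT livers, among them Serpina3n, a protease inhibitor, at -1.69 ± 0.22 in HZ and -1.25 ± 0.22 in WT, and Fgb, a fibrinogen chain, at -0.88 ± 0.17 and -0.96 ± 0.17. The median change of the list was -0.38 in HZ and -0.33 in WT, against 0.01 and -0.02 for all genes. Negative acute phase proteins, which fall in inflammation, were lower as well, 5 of 9 in each genotype, with Ahsg at -0.99 ± 0.10 in HZ and -0.85 ± 0.10 in WT and Serpina6, which carries corticosteroids, at -1.37 ± 0.18 and -1.16 ± 0.18. In WT 1 of the 9 was higher.

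Signalling genes upstream of the members were counted in 2 lists, beside shares of 26.4% of all genes lower under WY in HZ and 26.7% in WT. Of 13 genes of the IL-6 and STAT3 axis, 7 were lower and 1 higher in HZ and 6 lower and 1 higher in WT, with the kinases Jak1 at -0.41 ± 0.05 in HZ and -0.45 ± 0.05 in WT and Jak2 at -0.70 ± 0.08 and -0.69 ± 0.08. Of 13 genes of the IL-1, NF-κB and C/EBP axis, 5 were lower and 1 higher in each genotype, with a median change of -0.20 in HZ and 0.00337 in WT. Il1rap, the IL-1 receptor accessory protein, was at -0.78 ± 0.09 in HZ and -0.75 ± 0.09 in WT, the transcription factor Cebpb at -1.21 ± 0.17 and -0.61 ± 0.17, and Myd88, an adaptor of IL-1 and Toll-like receptors, at 0.80 ± 0.13 and 0.74 ± 0.13. In both lists 0 genes differed between HZ and WT under either treatment.

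Glucocorticoid response genes were lower under WY in 8 of 10 cases in HZ and 6 of 10 in WT, against 26.4% and 26.7% of all genes. Whether metallothionein levels were linked to these genes was not tested. The receptor Nr3c1 was at -0.52 ± 0.06 in HZ and -0.47 ± 0.06 in WT, Tsc22d3, a glucocorticoid-induced leucine zipper protein, at -1.87 ± 0.25 in HZ, and the transcription factor Zbtb16 at -2.74 ± 0.50 in WT. Of 11 zinc and copper handling genes, 3 were higher and 3 lower in HZ and 2 higher and 4 lower in WT. Ccs, the copper chaperone of superoxide dismutase, was at 0.91 ± 0.07 in HZ and 1.00 ± 0.07 in WT, and Slc31a1, a copper importer, at -0.68 ± 0.05 and -0.66 ± 0.05. Of 8 partners of serum amyloids and lipocalin, such as receptors, 0 passed in HZ and 1 was lower in WT, Tlr4 at -0.76 ± 0.21.

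Other list counts under WY concerned cell markers. Hepatocyte markers were lower in 6 of 8 cases in HZ and 5 of 8 in WT, against 26.4% and 26.7% of all genes. Cps1 of the urea cycle was at -1.95 ± 0.17 in HZ and -2.03 ± 0.17 in WT. Of the neutrophil and monocyte markers 0 of 6 tested passed in HZ. In WT 1 was lower, Cxcr2 at -1.13 ± 0.47, with 0.752 CPM or less in every WT liver. Of the 12 Kupffer cell markers 0 passed in HZ and 1 was lower in WT (Vsig4, -0.45 ± 0.17). Cidec, the 1 adipocyte marker tested, was higher at 3.54 in both genotypes. The 1 lymphoid marker tested, Cd79b, did not pass. WY and vehicle comparisons in HZ and WT share no livers, but each shares livers with the genotype comparisons.

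The genes whose level followed the members most closely were found by Spearman rho of log2 CPM over the 28 livers among 11104 tested genes. For Saa2 these were Hpx (rho 0.830), which encodes the haem-binding protein hemopexin, Naip5 (0.825), Chi3l1 (0.810), Csf2rb2 (0.787) and Orm3 (0.777). For Lcn2 they were Hpx (0.877), Zfp532 (0.830), Tmem176b (0.818), Tmem176a (0.809) and Orm3 (0.806). For Mt1 they were Mtmr14 (0.808), Stat3 (0.769), Prg4 (0.768), Traf6 (0.762) and Nab2 (0.759). With the group means removed, rho was 0.752 to 0.812 for the 5 genes of Saa2 and 0.744 to 0.905 for those of Lcn2. For Mt1 it was 0.564 for Mtmr14, 0.757 for Stat3, 0.703 for Prg4, 0.495 for Traf6 and 0.669 for Nab2. Hpx itself ranged from 2619 to 5609 CPM in HZ livers under WY against 2592 to 3028 CPM in WT livers under WY, and from 3003 to 10472 CPM in HZ livers under vehicle against 2573 to 3771 CPM in WT livers under vehicle, highest in animal 38.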

How the data were processed

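Per the labels, liver RNA taken up with Trizol was made into libraries with the NEBNext Ultra kit. Per the submitters' processing notes, STAR 2.5.0a, HTSeq 0.6.1p1 and DESeq2 1.18.1 were used on mm10, while strand and annotation settings are not given, which leaves overlapping and antisense genes unresolved. The authors deposited raw counts per gene symbol in 2 tables, 1 for each treatment, and the animal number served as replicate number. The 5 HTSeq summary rows of each table, with 6.35 to 9.08% of reads in no gene (6.35 to 7.82% under WY and 7.85 to 9.08% under vehicle) and 0.413 to 0.511% in more than 1, and rows with symbols turned into dates (25 in the vehicle table and 27 in the WY table, 0.147 to 0.246% of gene counts) were left out.

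Counts were filtered with filterByExpr, scaled by TMM and fitted with robust quasi-likelihood in edgeR 4.0.16 (R 4.3.3) on all 28 libraries, with a mean per group and 24 residual degrees of freedom. Standard errors (SE) were obtained as |log2 fold change| divided by √F, and calls were made below a Benjamini-Hochberg adjusted p of 0.05 over 12607 genes. Log2 CPM used a prior count of 2. Alternatives were DESeq2 size factors, DESeq2 1.42.0, limma 3.58.1 voom with quality weights, no filter, a term for vehicle animals numbered 71 to 78, only the groups compared, exact two-sided permutation of ranks (3432 splits), leaving out each library and, chosen after seeing the data, leaving out 5 HZ livers low on the second principal component. The fits were tested on simulated data.

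The members and gene lists were chosen with earlier results of these data known. Named were all members, the list genes with the smallest p, the 5 genes most like Saa2, Lcn2 and Mt1 (mean of at least 1 CPM, unnamed gene models left out), and Sirt6. Other genes whose levels are quoted (Alb, Hnf4a, Mpo, Hpx, Socs3, Stat3) and single animals were chosen after their values were seen. Of the marker symbols, Adgre1 was found as Emr1, and Trbc2 was not found. Positions are from GENCODE M21 and promoters from RefSeq. P-values measure the spread between animals of these groups. Sex was not given in these sources.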

Additional observations from a re-analysis of the deposited data

Results flagged for a closer look

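There were 40 sets of 7 livers (10 genes in 4 groups). In 8 of them the highest liver was set apart from the others by more than Dixon's 95% critical value for 7 samples. The rule was applied to log2 CPM and marks about 1 in 20 independent sets by chance. These sets share livers and many members were correlated, so 8 of 40 cannot be compared with that rate. HZ vehicle animal 30 stood apart for 5 genes, with 3434 CPM of Saa1, 2750 CPM of Saa2, 1285 CPM of Orm1, 973 CPM of Mt1 and 998 CPM of Mt2. Saa3 stood apart at 44.8 CPM in HZ animal 21 under WY and at 19.4 CPM in HZ animal 38 under vehicle. Mt2 stood apart at 83.4 CPM in WT animal 37 under vehicle. In the WT group under WY, 0 sets were marked.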

How the results depend on the processing

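No paired analysis was possible because no animal number occurs in more than 1 group. Numbers of members that passed moved with the processing. For HZ against WT under WY (0 with all livers), 1 passed with DESeq2 size factors, 1 with a term for the animal number series, 1 with only the groups compared and 4 by DESeq2, and leaving out 1 library gave 0 to 4. Over all genes, 398 passed with all livers, 683, 548, 495 and 1123 in these alternatives, and 74 to 983 on leaving out 1 library. For HZ against WT under vehicle (0), 2 passed by voom and 3 by DESeq2, and leaving out 1 library gave 0 to 3. Over all genes, 261 passed with all livers, 729 by voom, 521 by DESeq2 and 43 to 649 on leaving out 1 library. With the term for the animal number series 69 of all genes passed. With only the groups compared, by ranks and without the 5 livers, 0 of all genes passed. For WY against vehicle in HZ (4), 2 passed by voom, by ranks and without the 5 livers low on the second component, 5 passed by DESeq2 (Saa2 higher, and Saa3, Saa4, Crp and Mt2 lower, with Mt1 lost at -0.35, adjusted p 0.315), and leaving out 1 library gave 3 to 6. Over all genes, 7024 passed with all livers, 7056 by voom, 6003 by ranks, 6411 without the 5 livers and 7058 by DESeq2. Leaving out 1 library gave 6660 to 7126 of all genes. For WY against vehicle in WT (3), 5 passed with the number term, by DESeq2 and by ranks and 7 with only the groups compared and without the 5 livers, and leaving out 1 library gave 2 to 5. Over all genes, 6815 passed with all livers, 6458 with the number term, 6860 by DESeq2 and 6855 by ranks. With only the groups compared 7081 of all genes passed, without the 5 livers 7155, and on leaving out 1 library 6491 to 6906. The interaction had 0 in all alternatives.

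Directions turned for these values, given as log2 fold changes or, by ranks, as the difference of median log2 CPM, which is not a fitted value. For HZ against WT under WY, Crp was -0.00935 with DESeq2 size factors, -0.00933 by DESeq2 and -0.0178 without the 5 livers, and Saa3 was -0.0594 without them. For HZ against WT under vehicle, Saa2 was -0.0776 by DESeq2, Orm1 -0.0839 by ranks, and without the 5 livers Saa1 was -0.53, Saa2 -0.36, Orm1 -0.0471, Orm2 -0.13, Mt1 -0.61 and Mt2 -0.86. For WY against vehicle in HZ, Saa1 was 0.47 by voom, 2.27 by ranks and 0.88 without the 5 livers, and Saa2 was 1.74 by DESeq2, 1.66 by ranks and 0.10 without them. Saa3 was -0.40 by voom, -1.08 by DESeq2, -0.50 by ranks and -0.55 without the 5 livers, and Orm2 was 0.10 by voom and 0.74 by ranks.

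On leaving out 1 library, values ranged from -0.0319 to 0.0569 for Crp in HZ against WT under WY. In HZ against WT under vehicle they ranged from -0.14 to 3.73 for Saa1, -0.0521 to 4.62 for Saa2, -0.0154 to 0.26 for Orm1, -0.64 to 3.11 for Mt1 and -0.96 to 4.13 for Mt2. In WY against vehicle in HZ they ranged from -2.09 to 1.93 for Saa1, -3.37 to 1.74 for Saa2, -1.09 to 1.04 for Saa3 and -0.99 to 0.68 for Orm2, and in WT from -0.47 to 0.0106 for Saa3. DESeq2 replaced the counts of animal 30 for Saa2, Mt1 and Mt2, of WT vehicle animal 37 for Mt1 and Mt2 and of animal 21 for Saa3 as outlying. For the other values that turned, Crp included, the cause was not tested. Depth was not limiting for Saa1 or Crp, but Saa3 and Mt2 rested on as few as 17 and 20 counts in a liver.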

Other observations

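The ratio of Mt1 to Mt2 counts, chosen after the values were seen, had a median of 3.05 in HZ livers under WY (2.31 to 4.15), 2.78 in WT livers under WY (2.63 to 6.53), 2.13 in HZ livers under vehicle (0.975 to 3.05) and 1.96 in WT livers under vehicle (1.47 to 2.32). In WT every WY liver lay above every vehicle liver. For levels of single genes, WY and vehicle livers in WT did not overlap for 27.8% of all genes. The highest ratios, 6.53 in WT WY animal 25 and 6.05 in animal 10, rest on 34 and 20 counts of Mt2. In HZ vehicle animal 30, which had the most metallothionein RNA of all livers, the ratio was 0.975, and in the highest WT liver, animal 37, it was 1.47. The ratio of Saa1 to Saa2 counts in animal 30 was 1.25, the lowest of its group, against group medians of 2.97 in HZ livers under WY, 2.80 in WT livers under WY, 2.09 in HZ livers under vehicle and 2.45 in WT livers under vehicle. These ratios were not tested, and stretches shared by Saa1 and Saa2 enter that ratio.

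Socs3, a feedback inhibitor of IL-6 signalling, had 45.2 CPM in animal 30 against 11.0 CPM or less in WT livers under vehicle. Stat3 had 300.3 CPM there against 138.6 CPM or less in WT livers under vehicle. In HZ livers under WY, Socs3 reached 20.2 CPM in animal 14, against 14.0 CPM or less in WT livers under WY.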
